A study of Mus musculus with 6 samples.

Results

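The genes described here are the PDGF and FGF ligands and receptors of mouse embryonic fibroblasts, 10 genes picked by symbol: the ligands Pdgfa, Pdgfb, Pdgfc, Pdgfd, Fgf2 and Fgf7 and the receptors Pdgfra, Pdgfrb, Fgfr1 and Fgfr2. All 10 were found among the 24062 symbols of the count table, and all 10 were among the 13990 genes with enough counts to be tested. The 6 libraries came from embryonic fibroblasts of the C57BL/6 strain, harvested at day 10: 3 labelled EV control and 3 labelled p27OE, whose cells had been given p27 by lentivirus. The protein p27, encoded by Cdkn1b, inhibits cyclin-dependent kinases. The labels name no Cre, allele or clone and do not say what the EV libraries received. They also conflict on state, with non-senescent in the design text against senescent in the p27OE titles and the protocol for treatment. The comparison asks how far the growth factor genes of these cells differ when p27 is raised.

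Platelet-derived growth factors (PDGF) are dimeric mitogens for connective tissue cells, and they act through the receptor tyrosine kinases PDGFRα and PDGFRβ, which mark fibroblasts and pericytes. Fibroblast growth factors (FGF) signal through FGFR kinases together with heparan sulfate chains on the cell surface. In embryonic tissue, mesenchymal cells release Fgf7 and Fgf10 toward the epithelium, which carries an Fgfr2 isoform, while Fgfr1 is the usual FGF receptor of fibroblasts.

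The libraries held 39183624 to 61219345 counts. Cdkn1b was at 31.5 to 43.9 CPM in EV control and 167 to 337 CPM in p27OE. CPM scales a gene's count to the size of its library, with TMM factors. Libraries also stood apart within the groups: 4 Y-linked genes (Uty, Kdm5d, Ddx3y, Eif2s3y) summed to 0.125, 126 and 124 CPM in EV control libraries 1, 2 and 3, and to 1.95, 57.1 and 137 CPM in p27OE libraries 1, 2 and 3. Each group therefore had 1 library of low Y-linked level, the one numbered 1, and level and number cannot be told apart there. Xist, the RNA of the inactive X chromosome in female cells, ran the other way, at 407, 5.67 and 0.680 CPM in EV control libraries 1, 2 and 3, and at 330, 164 and 0.457 CPM in p27OE libraries 1, 2 and 3. The labels give no sex of the embryos, so a difference in sex, a mixture of cells and the library number cannot be told apart, and the Y-linked term used below stands for any of them. All 10 fibroblast markers were tested genes, with a summed level of 45265 to 62670 CPM in EV control and 50232 to 51135 CPM in p27OE. The sum does not show single markers, some of which differed strongly between libraries. Dcn was at 76.1, 11.2 and 8.27 CPM in EV control libraries 1, 2 and 3. It was at 92.7, 25.2 and 8.43 CPM in p27OE libraries 1, 2 and 3. Lum was likewise highest in the library numbered 1 of each group, while Vim was lowest there, at 3736 and 4642 CPM. Of the 6 endothelial markers Cldn5 had no count and the sum stayed between 2.30 and 6.88 CPM. Olig2, a factor of the Pdgfra-bearing oligodendrocyte precursors, also had no count. The 10 macrophage markers summed to 72.3 CPM in EV control 1 and to 16.02 to 32.5 CPM elsewhere. The 6 epithelial markers summed to 1.95 to 4.48 CPM in EV control and 3.90 to 8.15 CPM in p27OE. Of these, Cdh1 was highest in p27OE 1, at 2.25 CPM, and Krt18 in p27OE 3, at 7.76 CPM. The part of epithelial cells in the member values was not tested.

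In GRCm38 (GENCODE M21) the ligand genes lie at chr5:138976014-138997370 (Pdgfa, minus strand), chr15:79995874-80014977 (Pdgfb, minus), chr3:81036416-81214040 (Pdgfc, plus), chr9:6168584-6378850 (Pdgfd, plus), chr3:37348346-37410108 (Fgf2, plus) and chr2:126034658-126091185 (Fgf7, plus). Of the receptor genes, 3 lie at chr5:75152292-75198215 (Pdgfra, plus), chr8:25513654-25575718 (Fgfr1, plus) and chr7:130162451-133123350 (Fgfr2, minus).

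The promoters of 4 members are shown here because their transcripts behaved in different ways across the libraries: Pdgfd was low and Pdgfra and Fgfr2 were high in the libraries numbered 1, and Fgf7 was the 1 member whose groups did not overlap. Each is the 250 bases before a start annotated by RefSeq (GRCm38.p6), written 5′ to 3′ on the gene's strand. Capitals mark a TATA box match, TATAAA.
Pdgfd chr9:6168236-6168485 (+ strand): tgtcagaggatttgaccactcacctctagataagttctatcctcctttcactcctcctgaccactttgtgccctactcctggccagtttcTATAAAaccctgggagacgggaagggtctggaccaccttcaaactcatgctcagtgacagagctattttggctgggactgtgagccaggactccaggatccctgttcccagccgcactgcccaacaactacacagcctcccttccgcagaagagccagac
Pdgfra chr5:75152001-75152250 (+ strand): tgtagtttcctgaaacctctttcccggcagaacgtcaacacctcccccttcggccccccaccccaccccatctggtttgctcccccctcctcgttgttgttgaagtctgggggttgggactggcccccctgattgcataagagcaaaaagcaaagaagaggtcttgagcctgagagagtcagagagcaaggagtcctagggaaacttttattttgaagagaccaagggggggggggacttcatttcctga
Fgfr2 chr7:130266809-130267058 (- strand): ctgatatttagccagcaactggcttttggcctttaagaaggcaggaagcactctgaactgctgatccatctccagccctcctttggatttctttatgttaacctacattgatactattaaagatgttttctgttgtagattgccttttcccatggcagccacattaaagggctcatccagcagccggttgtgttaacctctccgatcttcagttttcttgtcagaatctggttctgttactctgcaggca
Fgf7 chr2:126034408-126034657 (+ strand): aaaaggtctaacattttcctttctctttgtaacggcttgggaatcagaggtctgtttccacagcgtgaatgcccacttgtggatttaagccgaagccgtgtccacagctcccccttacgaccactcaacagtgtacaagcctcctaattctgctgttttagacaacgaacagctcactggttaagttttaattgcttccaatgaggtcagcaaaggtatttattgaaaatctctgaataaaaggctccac
The windows were searched on both strands for the GC box GGGCGG, the TATA box TATAAA, the AP-1 motif TGANTCA and the E2F motif TTTNGCGC. Among all 32817 promoter windows of this length, 32.7% held the GC box, 12.4% the TATA box, 6.75% the AP-1 motif and 1.13% the E2F motif. In the 4 windows shown there was a single match, the TATA box of Pdgfd, whose first base lay 160 bases before the start. The Fgf2 window held 1 GC box and is not printed because all 250 of its bases lie in annotated exons. RefSeq windows were matched for 7 of the 10 members.

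No PDGF or FGF member passed the test between p27OE and EV control (edgeR quasi-likelihood test, Benjamini-Hochberg adjusted p under 0.05 over all tested genes). Of all tested genes, 2.61% passed, 1.77% higher and 0.843% lower, and 48.2% had a fold change below 0. With DESeq2 16.6% passed. Without both libraries numbered 1 no member passed, where 16.7% of tested genes did, 7.81% higher and 8.9% lower. Of the 10 members, 7 had a log2 fold change above 0 and 3 below 0, with a median of 0.14, where the median of all tested genes was 0.01. At an unadjusted p under 0.05 there was 1 member, Fgf7, where 26% of all tested genes were under it, and DESeq2 and limma-voom also called 0 members. The largest differences were in Fgf2, Pdgfb and Fgfr2, and the most even level was that of Fgfr1. Where values are given below, the fold changes are log2 of p27OE over EV control, and means are ± SD over 3 libraries.

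**Figure D1:**
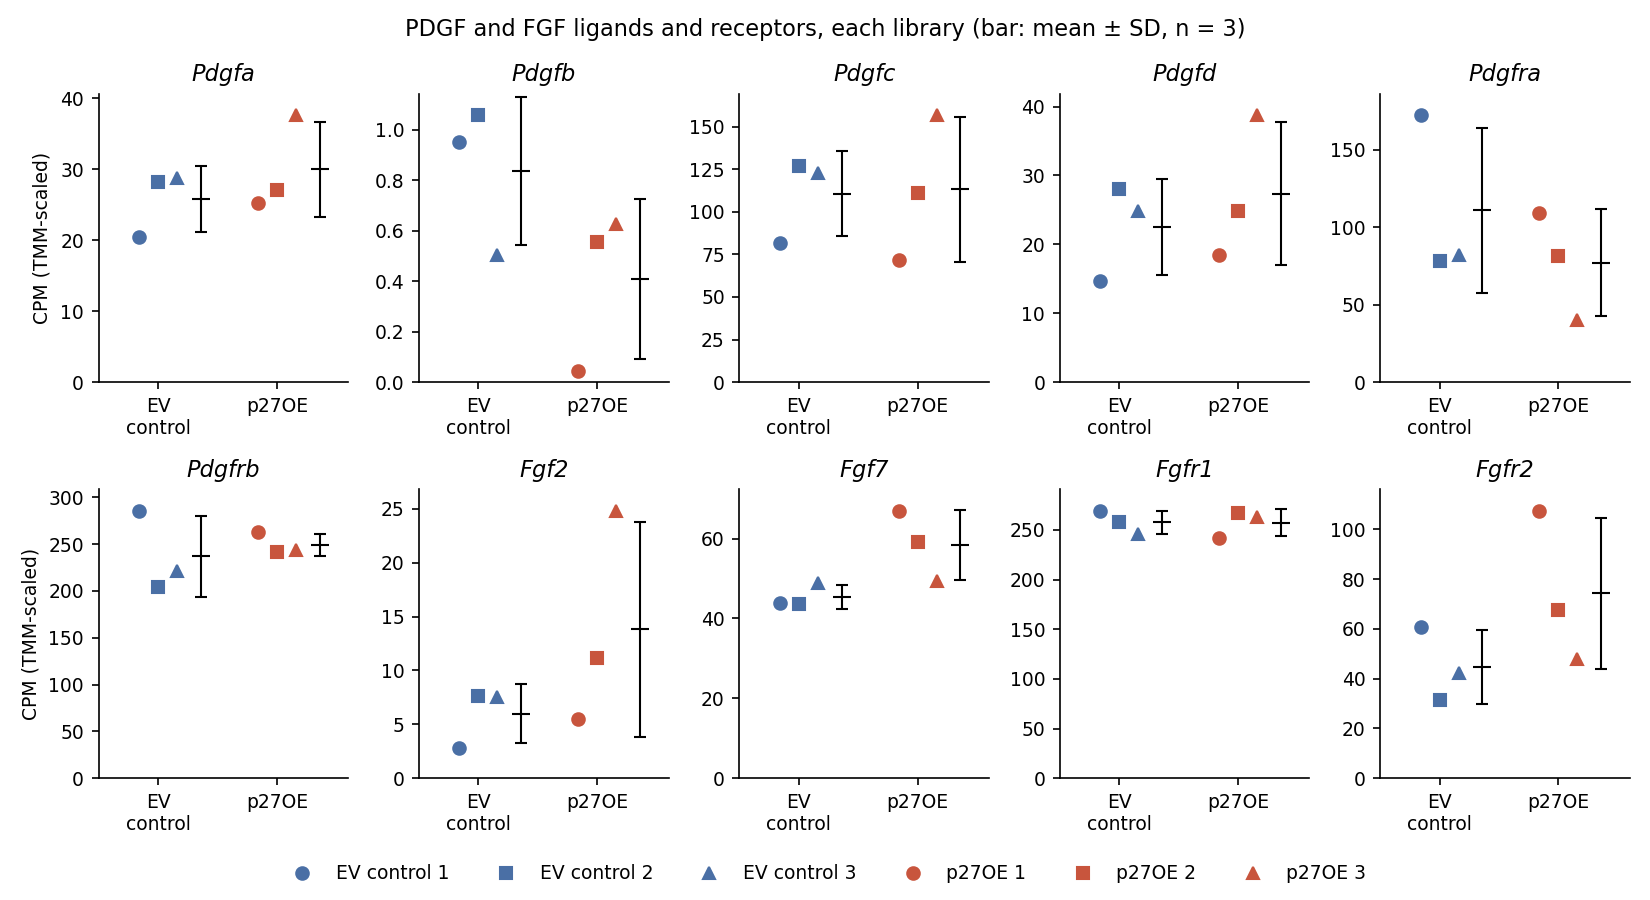
CPM of the 10 members in each of the 6 libraries; colour gives the group, marker shape the library number, and the black bar the mean ± SD of 3 libraries. The groups overlapped for every gene except Fgf7, and p27OE 3 was the highest library for Fgf2, Pdgfa, Pdgfc and Pdgfd and the lowest for Pdgfra.

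Among the PDGF ligands, Pdgfc was the most abundant. It encodes a chain that is released in latent form and binds mainly PDGFRα once a protease has cut it. The level was 81.8, 127 and 123 CPM in EV control libraries 1, 2 and 3 and 71.7, 111 and 157 CPM in p27OE libraries 1, 2 and 3. Both libraries numbered 1 were low, p27OE 3 was the highest, and the groups overlapped throughout. The difference, log2 of p27OE over EV control, came to 0.04 ± 0.30 (SE; adjusted p by edgeR = 0.956), with a 95% interval from −0.69 to 0.76.

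Pdgfd, whose product is also latent and acts mainly through PDGFRβ, was likewise highest in p27OE 3. It was at 14.6, 28.0 and 24.9 CPM in EV control and at 18.4, 24.9 and 38.8 CPM in p27OE. The libraries numbered 1 were the lowest of each group, and of these p27OE 1 was the higher for Pdgfd and the lower for Pdgfc. This gave a log2 difference of 0.28 ± 0.34 (SE; adjusted p by edgeR = 0.643). Pdgfa, which encodes the classical ligand chain of PDGFRα, was at 20.5, 28.2 and 28.8 CPM in EV control and 25.2, 27.05 and 37.7 CPM in p27OE. Its groups overlapped, at 0.22 ± 0.20 on the log2 scale (SE; adjusted p by edgeR = 0.541). An antisense gene, 6330403L08Rik, overlaps 26.1% of the Pdgfa exons, and without a stated strand setting its reads cannot be separated.

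Pdgfb, the ligand chain that endothelial cells use to recruit pericytes, was close to the detection limit. It had 38, 64 and 23 counts in EV control libraries 1, 2 and 3 and 2, 27 and 26 counts in p27OE libraries 1, 2 and 3. The low fitted value, −1.04 ± 0.78 (SE; adjusted p by edgeR = 0.447), became −0.45 ± 0.46 without both libraries numbered 1. A 95% interval from −2.92 to 0.83 leaves its direction unknown at this depth.

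The PDGF receptors differed from each other in how even they were. Pdgfrb encodes the receptor for PDGF-B and PDGF-D, and it was at 286, 204 and 221 CPM in EV control and 263, 242 and 243 CPM in p27OE. The p27OE libraries lay inside the range of the control libraries. The fitted log2 difference was 0.07 ± 0.14 (SE; adjusted p by edgeR = 0.773), and the 95% interval corresponds to 0.839-fold to 1.32-fold. Pdgfra encodes the receptor for PDGF-A and PDGF-C and is a marker of mesenchymal progenitors. It was at 173, 78.3 and 82.0 CPM in EV control libraries 1, 2 and 3 and at 109, 81.5 and 40.5 CPM in p27OE libraries 1, 2 and 3. The highest library was EV control 1 and the lowest p27OE 3, with the rest between them. On the log2 scale the groups differed by −0.52 ± 0.44 (SE; adjusted p by edgeR = 0.505). In such bulk libraries, fewer cells of a type and less RNA per cell cannot be told apart.

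The balance between the PDGF receptors did not pass a test between the groups, whose ranges overlapped. Dividing Pdgfra by Pdgfrb CPM gave 0.605, 0.384 and 0.370 in EV control and 0.416, 0.337 and 0.166 in p27OE. The mean log2 ratio differed by −0.63 in p27OE (exact two-sided permutation test, p = 0.3; p = 0.4 adjusted over 3 ratios). With 3 against 3 libraries this test cannot go below 0.1.

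Fgf2 had the highest fold change of the members. It encodes basic FGF, a broad mitogen without a signal peptide. Its level was 2.83, 7.61 and 7.57 CPM in EV control libraries 1, 2 and 3 and 5.50, 11.1 and 24.8 CPM in p27OE libraries 1, 2 and 3, from 113 to 1033 counts a library. Each p27OE library exceeded the control of the same number, but p27OE 1 lay below EV control 2 and 3, so the groups overlapped. The model put the log2 difference at 1.20 ± 0.61 (SE; adjusted p by edgeR = 0.272; 95% interval −0.27 to 2.66). Without both libraries numbered 1 it was 1.22 ± 0.37 (adjusted p = 0.0822), and without p27OE 3 it was 0.46.

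The Fgf2 count carries an uncertainty of its own. Nudt6 lies on the opposite strand and its exons overlap 640 bases, 9.44%, of the Fgf2 exons, and the strand setting of the counting was not given. Nudt6 was at 6.08, 14.6 and 16.6 CPM in EV control and 11.1, 17.8 and 36.1 CPM in p27OE, the same order of libraries apart from EV control 2 and 3. Between groups the log2 difference was 0.80 ± 0.52 (SE; adjusted p by edgeR = 0.385). How much of either value came from shared reads was not tested.

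Fgf7, keratinocyte growth factor, is made by mesenchyme and acts on epithelial cells. It was at 43.9, 43.5 and 48.9 CPM in EV control and at 66.9, 59.1 and 49.5 CPM in p27OE. It was the 1 member whose groups did not overlap, though p27OE 3 was only just above EV control 3. Of all tested genes 33.3% had groups that did not overlap, 16.8% higher and 16.5% lower in p27OE. As a log2 fold change this was 0.36 ± 0.12 (SE; adjusted p by edgeR = 0.124). The ratio of Fgf2 to Fgf7 ran from 0.0644 to 0.175 in EV control and from 0.0821 to 0.502 in p27OE, a log2 difference of 0.72 (exact two-sided permutation test, p = 0.4).

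The FGF receptors gave the most even and one of the least even levels of the set. Fgfr1, the main FGF receptor of fibroblasts, was at 269, 258 and 246 CPM in EV control and 242, 267 and 263 CPM in p27OE. Its means were 258 ± 11.7 and 257 ± 13.6 CPM, a log2 difference of 0.00 ± 0.08 (SE; adjusted p by edgeR = 0.988). The 95% interval corresponds to 0.875-fold to 1.14-fold. Fgfr2, whose isoforms serve epithelium and mesenchyme, was at 60.8, 31.4 and 42.3 CPM in EV control libraries 1, 2 and 3 and 107, 67.4 and 48.1 CPM in p27OE libraries 1, 2 and 3. Every p27OE library exceeded the control library of its own number, and the highest control library, EV control 1, lay above p27OE 3. The fit gave 0.73 ± 0.35 on the log2 scale (SE; adjusted p by edgeR = 0.245). Gene counts do not separate the Fgfr2 isoforms. Exons of Ctbp2, on the same strand, overlap 314 bases, 3.04%, of the annotated Fgfr2 exons, and how shared reads were counted is not given. The ratio of Fgfr1 to Fgfr2 was 4.42, 8.22 and 5.81 in EV control and 2.25, 3.96 and 5.47 in p27OE, a log2 difference of −0.70 (exact two-sided permutation test, p = 0.2).

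Set against exon length, the receptors Pdgfrb and Fgfr1 led the set and Pdgfb closed it. In EV control, CPM per kilobase of GENCODE M21 exon was 43.3 ± 7.84 for Pdgfrb, 26.1 ± 1.18 for Fgfr1, 21.7 ± 4.90 for Pdgfc and 13.99 ± 0.928 for Fgf7. Pdgfra followed at 11.1 ± 5.33, Pdgfa at 8.27 ± 1.49, Pdgfd at 7.13 ± 2.21 and Fgfr2 at 4.34 ± 1.44, and Fgf2 and Pdgfb stood at 0.885 ± 0.406 and 0.201 ± 0.0705. The ranges of neighbours in this order overlapped for Fgfr1 and Pdgfc, Fgf7 and Pdgfra, Pdgfra and Pdgfa, Pdgfa and Pdgfd, and Pdgfd and Fgfr2. They did not overlap for the other neighbours. In p27OE, Pdgfra was at 7.70 ± 3.46 and came after Pdgfa at 9.61 ± 2.15 and Pdgfd at 8.68 ± 3.30, with ranges that overlapped. The order depends in part on the length used: per kilobase of the longest transcript, Fgfr1 was first in EV control at 51.1 and Pdgfrb second at 43.7. By that length Fgfr2 ranked 7 in EV control at 10.1 and 5 in p27OE at 16.8, against rank 8 in both by exons. Its annotated exons total 10328 bases and its longest transcript 4429.

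**Figure D2:**
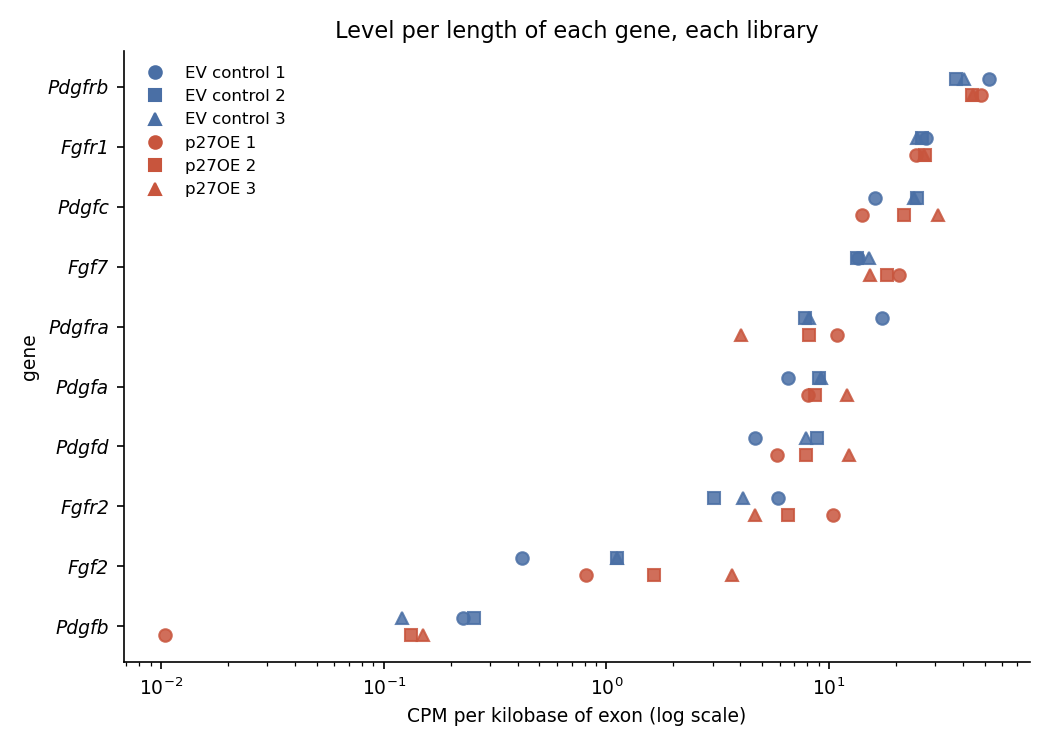
CPM per kilobase of exon (log axis) for each member in each library; colour gives the group and marker shape the library number, and genes are in the order of the EV control mean. Pdgfrb is at the top at 37.2 to 52.1 in EV control, and Pdgfb, with its p27OE 1 value apart at 0.0104, is at the bottom.

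Much of the spread within groups ran with the Y-linked level. The mean of EV control 2 and 3 was 2.69 times the EV control 1 value for Fgf2, 1.81 times for Pdgfd, 1.53 times for Pdgfc and 1.39 times for Pdgfa. Among the receptors it was 0.464 times for Pdgfra and 0.606 times for Fgfr2. Between p27OE 3 and p27OE 1 the same members leaned the same way, with ratios of 4.52, 2.10, 2.19 and 1.49 for those ligands and 0.370 and 0.448 for the receptors. Fgfr1 was near even in both, at 0.937 and 1.09. The macrophage marker sum, high in EV control 1 only, and the smooth muscle and pericyte marker sum also differed between these libraries. The latter was at 5790, 10180 and 10259 CPM in EV control libraries 1, 2 and 3 and 7032, 9601 and 14388 CPM in p27OE libraries 1, 2 and 3. Acta2 and Tagln, at 3573 and 1900 CPM in EV control 1, made up most of it, so it does not show single markers. Mcam and Des were also lowest in the library numbered 1 of each group. Notch3, Kcnj8 and Abcc9 were instead highest there, Notch3 at 36.9, 14.9 and 20.3 CPM in EV control libraries 1, 2 and 3. The part of the macrophage, smooth muscle and pericyte markers in the member values was not tested.

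**Figure D3:**
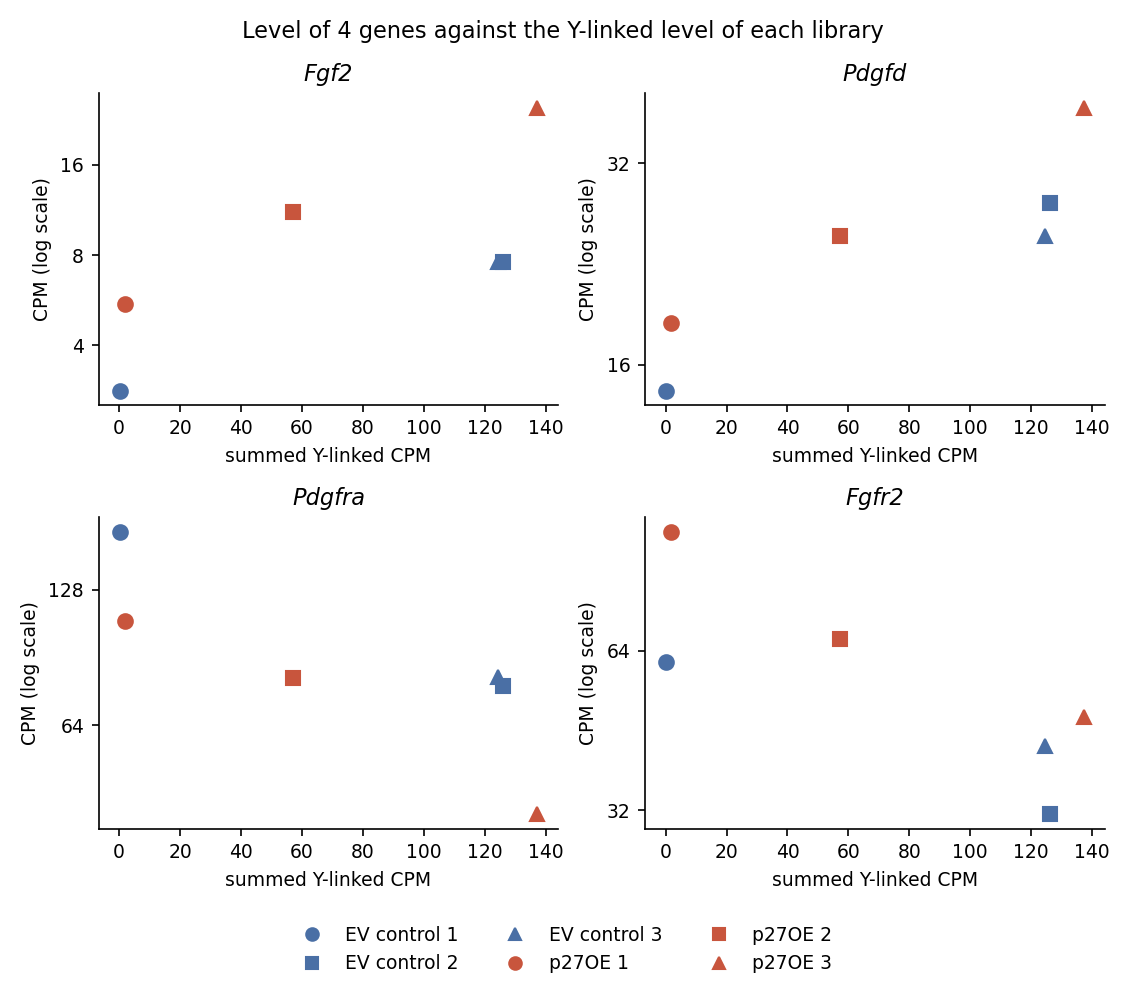
Level of Fgf2, Pdgfd, Pdgfra and Fgfr2 (CPM, log axis) against the summed Y-linked CPM of the same library; colour gives the group and marker shape the library number. The libraries numbered 1, at the left, are low for Fgf2 and Pdgfd and high for Pdgfra and Fgfr2 within each group.

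Once the model held the Y-linked level too, 6 of the 10 members passed, 5 higher and 1 lower in p27OE. In the same model 34% of all tested genes passed, made up of 18% higher and 16% lower, so the member count is to be read against that share. Fgf2 rose by 1.36 ± 0.13 on the log2 scale (SE; adjusted p by edgeR = 0.000912), Pdgfd by 0.40 ± 0.07 (adjusted p = 0.0069) and Pdgfa by 0.29 ± 0.07 (adjusted p = 0.0175). Pdgfra fell by 0.71 ± 0.07 (adjusted p = 0.00111). Fgfr2 and Fgf7 rose by 0.57 ± 0.13 and 0.33 ± 0.10, with adjusted p of 0.0136 and 0.0405 from the same edgeR model. Pdgfb, Pdgfc, Pdgfrb and Fgfr1 did not pass with all 6 libraries.

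These calls differed in how far they rested on single libraries. With all libraries the model with the Y-linked term called 34% of all tested genes. How many of all genes passed in every fit below was not counted, so the passes do not set the members apart. When each of the 6 libraries was left out in turn from the model with the Y-linked term, Fgf2, Pdgfd and Pdgfra passed in all 6 fits. Fgfr2 passed in 4 and was lost without EV control 1 (edgeR adjusted p = 0.225) and without p27OE 3 (0.149). Pdgfa passed in 2, without EV control 1 and without p27OE 2, and lay between 0.0528 and 0.0777 in the other fits. Fgf7 passed only without EV control 3 or p27OE 3, and was at 0.109 to 0.213 otherwise. Of the members that did not pass with all libraries, Pdgfc passed without EV control 1 (edgeR adjusted p = 0.0143) and without p27OE 1 (0.0461), and Pdgfrb without EV control 1 (0.037). Fgf2, Pdgfd, Pdgfra and Fgfr2 had the same direction at the low and the high Y-linked level. The libraries compared were also in the model, so this is no separate check, and p27OE 2 was left out of it. Pdgfa, Fgf7 and Pdgfb kept their direction too, while Pdgfc, Pdgfrb and Fgfr1 did not. The share of all genes that kept theirs was not counted. From EV control 1 to p27OE 1, at the low level, the log2 difference was 0.96 for Fgf2, 0.33 for Pdgfd, −0.66 for Pdgfra and 0.82 for Fgfr2. Between the high-level ones, p27OE 3 against the mean of EV control 2 and 3, it was 1.71, 0.55, −0.99 and 0.38. Pdgfc was at −0.19 in the first and 0.33 in the second.

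**Figure D4:**
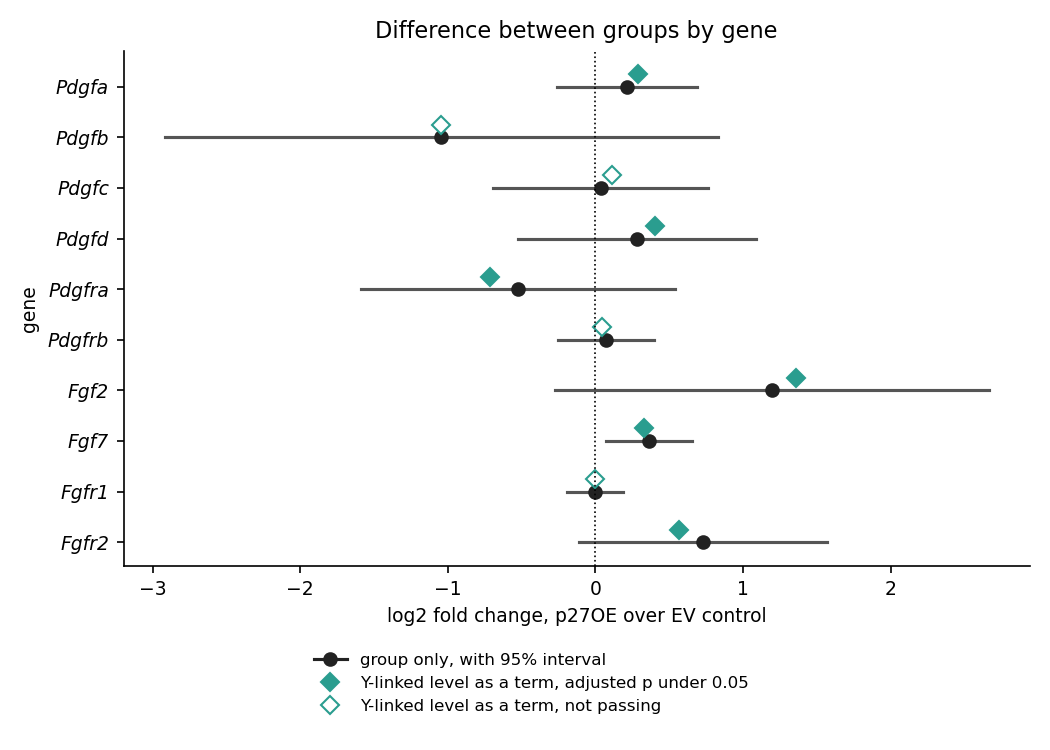
Log2 fold change of each member, p27OE over EV control; black points and lines give the model with the group alone and its 95% interval, and diamonds the model that adds the Y-linked level, filled where the adjusted p was under 0.05. Black intervals cross 0 for every gene except Fgf7, whose adjusted p was 0.124, and the 6 filled diamonds are Pdgfa, Pdgfd, Pdgfra, Fgf2, Fgf7 and Fgfr2.

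Other genes of the FGF family were mostly low. Of 20 further FGF genes 12 were tested. Of these, 9 had a fold change above 0 and 3 below, with a median of 0.53, and 1 rose. Among all tested genes 48.2% lay below 0 and 1.77% rose. The gene that rose was Fgf10, which like Fgf7 is sent from mesenchyme to epithelium. It was at 12.7, 13.6 and 17.9 CPM in EV control and 30.9, 25.8 and 25.3 CPM in p27OE. The groups did not overlap, with p27OE higher, as for 16.8% of all tested genes. In the fit the log2 value was 0.89 ± 0.16 (SE; adjusted p by edgeR = 0.0462). Fgf22 and Fgf12, at 1.19 ± 0.50 and 1.59 ± 0.86, did not pass and had at most 21 counts in a library. Fgf4 and Fgf8 had no count in any library.

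Among 11 further receptors and carriers, 7 were tested, 5 above 0 and 2 below, and 1 rose, where 1.77% of all tested genes rose. Fgfrl1, an FGF receptor relative that binds ligand but lacks the kinase domain, was at 43.6, 39.7 and 38.2 CPM in EV control and 69.4, 58.9 and 61.8 CPM in p27OE. Every p27OE library was above every control, as for 16.8% of all tested genes. It rose by 0.65 ± 0.09 on the log2 scale (SE; adjusted p by edgeR = 0.0335). Fgfr3, a receptor of cartilage and epithelium, was at 1.403 ± 0.481 without passing, with its highest value, 16.2 CPM, in p27OE 1. The FGFR-binding membrane protein gene Flrt3 was at −0.42 ± 0.12 and did not pass.

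Of the 7 listed proteases that release active PDGF, all tested, 5 lay above 0 and 2 below, with a median of 0.40. Among all tested genes 48.2% lay below 0. On the list 1 protease rose and 1 fell, where 1.77% of all tested genes rose and 0.843% fell. Plat, tissue plasminogen activator, cuts latent PDGF-C. It was at 119, 102 and 94.0 CPM in EV control and at 46.2, 53.7 and 34.7 CPM in p27OE, a fall by 1.23 ± 0.17 on the log2 scale (SE; adjusted p by edgeR = 0.0348). St14, which encodes matriptase, a membrane protease that can cut PDGF-D, was low but rose, from 0.470 ± 0.106 to 1.86 ± 0.539 CPM (log2 fold change 1.97 ± 0.33, SE; adjusted p by edgeR = 0.045). Pcsk6, a proprotein convertase, was at 0.66 ± 0.20 without passing.

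Heparan sulfate genes, which encode proteoglycans and enzymes that make or alter the chains, had 16 of 24 members above 0. Their median was 0.10, and 1 rose, where 1.77% of all tested genes rose. Sdc2, a membrane proteoglycan, was at 224, 198 and 202 CPM in EV control and at 308, 297 and 290 CPM in p27OE. It rose by 0.52 ± 0.08 on the log2 scale (SE; adjusted p by edgeR = 0.0395). Hspg2, which encodes the matrix proteoglycan perlecan, and Hs3st1, a sulfotransferase, were at 0.72 ± 0.19 and 1.14 ± 0.32 without passing.

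**Figure D5:**
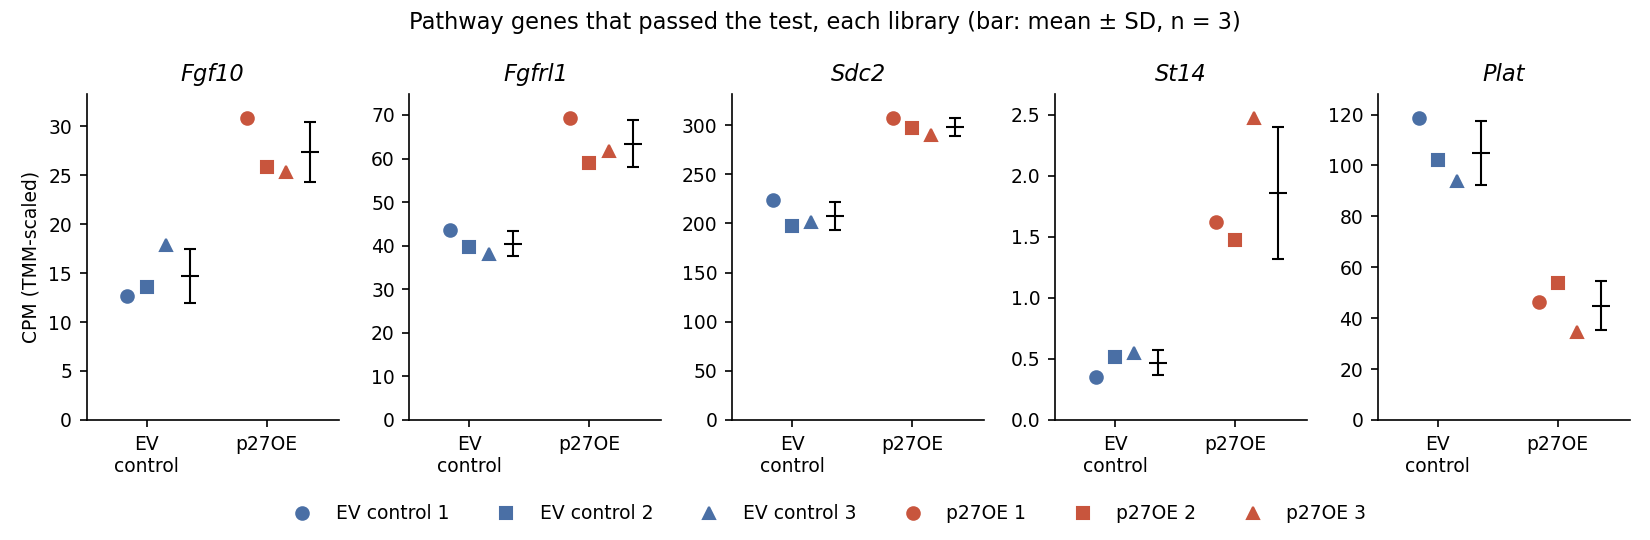
CPM of the 5 pathway genes outside the member set that passed the test, in each library; colour gives the group, marker shape the library number, and the black bar the mean ± SD of 3 libraries. Fgf10, Fgfrl1, Sdc2 and St14 are higher and Plat lower in all 3 p27OE libraries.

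Downstream of the receptors nothing passed in the model with the group alone. The 37 adaptor and cascade genes had 23 members above 0, a median of 0.05 and values from −0.33 to 0.49; Pik3r2, a regulatory subunit of PI3-kinase, was at 0.35 ± 0.09 and the adaptor gene Nck2 at 0.25 ± 0.07. At an unadjusted p under 0.05 there were 6 of the 37, where 26% of all tested genes were under it, and DESeq2 called 5, where it called 16.6% of all. The 13 feedback and ETS genes, which rise when FGF activates ERK, had a median of 0.02, 1 at an unadjusted p under 0.05 and 0 by DESeq2. Etv5, an ETS factor of this group, was at 0.45 ± 0.18, Etv4 at −0.63 ± 0.56 and the feedback inhibitor gene Spry4 at 0.32 ± 0.38. Of 11 tested VEGF, CSF1 and KIT family genes, which are relatives of the PDGF system, 8 lay below 0. Vegfc was at −0.51 ± 0.13, the VEGF receptor gene Flt1 at −0.70 ± 0.20 and Vegfa at −0.41 ± 0.13, none passing; 4 of the 11 had an unadjusted p under 0.05, against 26% of all tested genes, and DESeq2 called 3, all lower, against 16.6%.

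The other models called more genes of these lists, as they did of all genes. With the Y-linked term, which called 34% of all tested genes, 11 heparan sulfate genes were higher and 3 lower in p27OE, among them Hspg2 and Hs3st1 (edgeR adjusted p = 0.0128 and 0.0146). In that model 7 adaptor and cascade genes were higher and 2 lower, and 3 feedback and ETS genes were higher, among them Etv5 and Spry4. It called 2 of the other FGF genes higher, and 3 of the receptors and carriers higher and 1 lower. Of the proteases 4 were higher and 1 lower, and of the VEGF and CSF1 list 1 was higher and 4 lower. Without both libraries numbered 1, where 16.7% of all tested genes passed, 8 heparan sulfate genes were higher and 1 lower, again with Hspg2 and Hs3st1 (adjusted p = 0.0344 and 0.0388, edgeR). There 3 adaptor and cascade genes were higher and 1 lower, 1 feedback and ETS gene was higher (Etv5) and 1 lower (Etv4), and no gene of the VEGF and CSF1 list passed. DESeq2, which called 16.6% of all tested genes, called 4 heparan sulfate genes higher and 1 lower. It also called 2 receptors and carriers higher and 1 lower, 2 proteases higher and 1 lower, and 1 of the other FGF genes higher.

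The 5 pathway calls rested on most of the libraries. Fgf10, Fgfrl1, Plat, St14 and Sdc2 each kept an adjusted p under 0.05 without EV control 1 and lost it when EV control 2, EV control 3 or any p27OE library was left out, with edgeR adjusted p from 0.0698 to 0.221. No direction turned. In the same way 365 tested genes passed with all libraries and 1 or 2 when any of those 5 libraries was left out. Each of the 5 pathway genes was also called in the model that holds the Y-linked term. In p27OE cells, 9 of 10 smooth muscle and pericyte markers lay above 0 and 2 rose, Rgs5 and Cspg4. Among all tested genes 48.2% lay below 0 and 1.77% rose. The other markers on this list did not pass, with edgeR adjusted p from 0.0754 (Myh11) to 0.959 (Mcam, below 0). The part of these markers in the differences was not tested.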

How the data were processed

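RNA was counted by sequencing in 6 libraries, 3 EV control and 3 p27OE. The authors deposited raw read counts, whole numbers without normalisation, for each gene symbol. Per the submitters' processing notes, TopHat2 2.0.14, Bowtie2 2.2.6, featureCounts 1.4.6, Subread and mm10 were named. Annotation, strand setting and filters are not given in the sources used here. Library totals were 39183624 to 61219345 counts.

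From these counts, filterByExpr kept 13990 genes, which were scaled by TMM and tested with edgeR 4.0.16 (glmQLFit, robust, glmQLFTest, two-sided) under R 4.3.3; the model held the group alone. Benjamini-Hochberg adjustment ran over all 13990 genes, and a gene was called under 0.05. DESeq2 1.42.0 and limma 3.58.1 (voom) were alternatives. Simulated counts with known changes were used to test the fit: over 13826 genes, 17.9% of 1.5-fold, 80.6% of 2-fold and 93.9% of 4-fold changes were called, and 7 of 135 calls were false. The simulated noise was independent between genes, without the library differences seen here. Changes were placed only in genes above a minimum level, which Pdgfb did not reach. These shares therefore need not hold for the members. Coordinates and lengths came from GENCODE M21 (GRCm38, the assembly of mm10), and 10 of 10 members matched by symbol. The table's Figf and Emr1 were read as Vegfd and Adgre1.

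The members, lists, Y-linked term and alternatives were chosen with earlier results of these data known. All members were named, and from each pathway list the called genes and the 3 with the smallest p; 1 gene that this rule names is not reported here. Between libraries of a group the chi-square per gene was 6.49 to 188, above sampling noise. No label states separate cultures or embryos within a group; the p-values then reflect only how far these 6 libraries spread, which may be technical.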

Additional observations from a re-analysis of the deposited data

How the results depend on the processing

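Counts of called members were 0 in the model with the group alone and 0 under other scalings, filters, DESeq2, limma-voom, omission of Cdkn1b, omission of both libraries numbered 1 and each omission of 1 library. They were 2 with the replicate number as a block (Fgf2 and Fgfr2, edgeR adjusted p = 0.026 and 0.0322) and 6 with the Y-linked term. In the 6 fits with that term that leave out 1 library, an alternative added after the data were seen, 4 to 6 members and 2137 to 6257 genes passed, where 4761 passed over all 6 libraries. The 365 called genes became 2321 with DESeq2, 2410 with the replicate block, 4761 with the Y-linked term, 2334 without both libraries numbered 1, and 1 to 1827 over the single omissions. The cause was not tested. Other settings gave 313 to 497. The labels do not say that equal numbers mark pairs, and the deviations of same-numbered libraries correlated across genes at 0.67, 0.04 and 0.50, with EV control 2 closest to p27OE 3. The fit without a block was therefore kept.

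Members without a call changed sign in a few fits. On the log2 scale, Pdgfc was at −0.0022 with limma-voom, −0.0089 with the replicate block, and −0.27 to 0.26 over the single omissions. Fgfr1 was at 0.0026 with the stricter filter, 0.055 without both libraries numbered 1 and −0.044 to 0.023 over the omissions. Over the same omissions Pdgfd ran from −0.057 (without p27OE 3) to 0.479, Pdgfrb from −0.024 (without EV control 2) to 0.214 and Spry4, no member, from −0.011 (without EV control 1) to 0.517. The 3 ratios kept their direction. Fgf10 was at an adjusted p of 0.0506 with total-count scaling. Pdgfb rests on 2 to 64 counts a library. Changes of 1.5-fold were mostly missed in simulation (17.9% called), and each member's 95% interval gives what its own spread allows.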
